A study of Mus musculus with 6 samples.

Results

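The clustered histone genes of the mouse were followed in hair germ stem cells that lacked Lef1, or Lef1 and Tcf7. Members were all genes whose symbol begins with Hist1h, Hist2h, Hist3h or Hist4h, without those named as pseudogenes by the ending -ps, which gave 70 of 46517 listed genes. They comprised 6 linker (H1), 20 H2A, 19 H2B, 12 H3 and 13 H4 genes. By name, 56 belonged to the Hist1 cluster, 11 to Hist2, 2 to Hist3 and 1 to Hist4. The symbol Hist2h2bb stood on 2 gene identifiers, which were kept apart.

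RNA was sequenced from cells of back skin of mice at postnatal day 60, taken 3 days after hair was pulled to start a new growth phase, and sorted on integrin b1, CD34, Sca-1, Pcadherin and YFP. The 3 groups held 2 libraries each, and all 6 samples carried Sox9-CreER;R26-lox-stop-lox-YFP, in which the Sox9 promoter drives the CreER enzyme. Wild type (WT) had only these alleles, LEF1cKO had Lef1fl/fl in addition, and LEF1_TCF7dKO, called the double knockout here, had Lef1fl/fl;Tcf7-/-. Sex was labelled as mixed, and nothing in the labels said that libraries of a group came from separate animals, so the p-values weigh only the differences among these 6 samples, part of which may be technical. LEF1 and TCF7 are DNA-binding proteins through which beta-catenin acts on Wnt target genes.

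Core histones H2A, H2B, H3 and H4 form the protein spool of the nucleosome, and linker histone H1 binds the DNA where it enters and leaves. Most clustered genes are used in S phase, when new DNA needs new histones, and their messages end just after a conserved stem-loop instead of in a poly(A) tail. The stem-loop is bound by the protein SLBP, and the U7 snRNP guides the cut after it. In the growing hair follicle the hair germ is the first compartment to divide, so these messages also mark dividing cells. An mRNA kit of the type named in the labels enriches for poly(A) tails, so the levels below describe the histone RNA that such a kit recovered.

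The stem-loop was found in most members, and the forms below are shown because those of H4 genes differ in the stem from those of the other classes. They were read from GENCODE M21 transcripts after the stop codon, with the search pattern GGNNNTNNNNANNNCC, in which the first and last 6 bases had to pair, on the transcript strand. Capitals mark the paired stem and lower case the loop.
Form in 24 genes of classes H1, H2A, H2B and H3: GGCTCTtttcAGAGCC
Form in 7 genes, all H4: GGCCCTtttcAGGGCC
Form in 6 genes of classes H1, H2B and H3: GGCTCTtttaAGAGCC
Form in Hist1h4i and Hist2h4: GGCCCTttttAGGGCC
Form in Hist1h4b and Hist1h4j: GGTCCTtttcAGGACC
Form in Hist1h3g: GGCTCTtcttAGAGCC
Form in Hist1h4a: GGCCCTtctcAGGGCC
Form in Hist2h2ac: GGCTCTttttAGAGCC
The first form stood in Hist1h1c, Hist1h2ag, Hist1h2ap, Hist3h2a, Hist3h2ba and Hist1h3d, the second in Hist1h4n and Hist1h4m, and the third in Hist1h2bk and Hist1h3c. In all, 44 of the 68 members that could be placed in M21 held a stem-loop, and 16 had no annotated base after the stop codon, where none can be seen. Within the first 100 bases after the stop, 25 of 30 members with that much annotated end held the pattern, against 15 of 20140 other protein-coding genes (0.0745%). Hist1h2bh and Hist1h2bm could not be placed by their identifiers.

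Library totals ran from 40480694 to 63220022 expected counts, of which 0.00927% to 0.035% fell on clustered histone genes. Lef1 measured 21.4 and 20.4 TPM in WT, 13.5 and 8.37 in LEF1cKO cells and 9.22 and 9.42 in the double knockout. Tcf7 measured 26.9 and 36.0 TPM in WT, 29.3 and 27.8 in LEF1cKO cells, and 13.7 and 18.0 in the double knockout. Both were lower in the double knockout than in WT (log2 fold change -1.27 ± 0.25 (SE) and -1.37 ± 0.21, edgeR adjusted p = 0.012 and 0.0064), while the fall of Lef1 in LEF1cKO cells was not called (-0.92 ± 0.25, adjusted p = 0.28). Reads from outside a deleted part still count towards a gene, and the labels do not say which part is deleted, so remaining reads do not check the deletion.

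Histone RNA was lower in both double-knockout libraries than in any WT or LEF1cKO library. TPM is the level of a transcript scaled for its length and for the library total. Summed over the 70 members, it was 617 and 699 in WT, 854 and 507 in LEF1cKO cells, and 184 and 251 in the double knockout. The LEF1cKO libraries stood on both sides of WT, and their gap was wider than that between the WT libraries. Summed CPM, counts scaled to the library total with TMM factors and not to gene length, were 287 ± 27.8 (SD, n = 2) in WT, 291 ± 103 in LEF1cKO cells and 106 ± 23.2 in the double knockout. The double knockout was thus at 37.0% of WT, a log2 ratio of -1.44, with an SD of at most 0.32 between log2 sums within these groups. LEF1cKO against WT gave a log2 ratio of 0.02, within the SD of 0.52 between the LEF1cKO sums. In bulk samples, fewer cells with histone messages and less message per cell cannot be told apart.

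**Figure D1:**
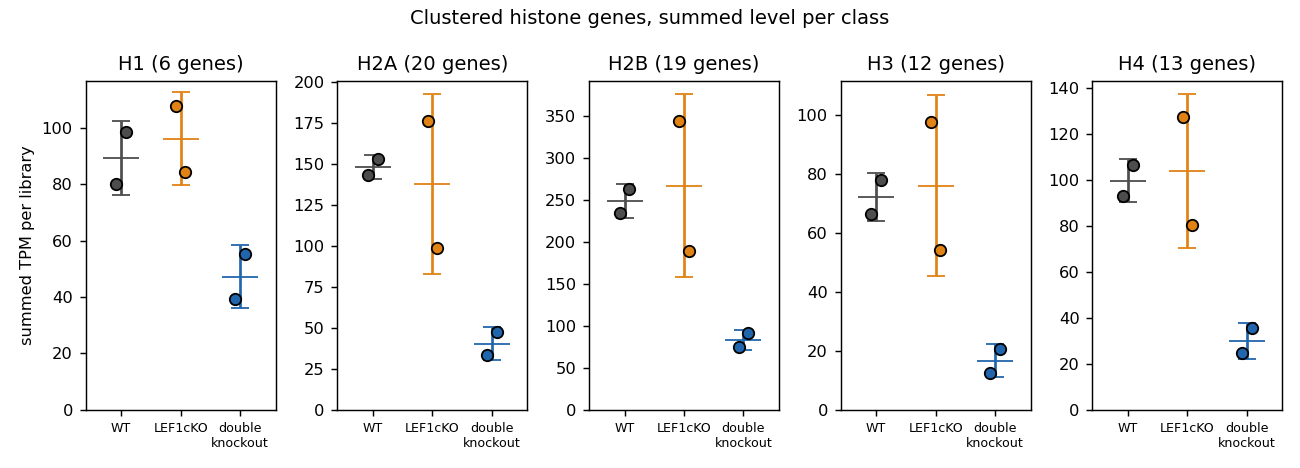
Summed TPM of the clustered histone genes of each class (y axis, from 0) in every library, by group (x axis), with points for libraries and bars for the mean and SD of 2 libraries. In all 5 classes both double-knockout points lie under the other 4, with H3 at 12.6 and 20.5 TPM against 66.6 and 77.9 in WT.

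All 5 classes were lower in the double knockout, H3 the most and H1 the least by ratio. The H1 sum was 80.2 and 98.8 TPM in WT, 108 and 84.5 in LEF1cKO cells, and 39.3 and 55.3 in the double knockout. For H3 the sum was 66.6 and 77.9 TPM in WT, 97.9 and 54.4 in LEF1cKO cells, and 12.6 and 20.5 in the double knockout. On TMM-scaled CPM the log2 ratios of double knockout to WT were -0.96 for H1, -1.83 for H2A, -1.48 for H2B, -2.03 for H3 and -1.69 for H4. H1 made up 13.0% and 14.1% of summed histone TPM in WT and 21.3% and 22.0% in the double knockout, while H3 went from 10.8% and 11.2% to 6.86% and 8.19%. In LEF1cKO these shares were 12.6% and 16.7% for H1 and 11.5% and 10.7% for H3. The differences between classes were not tested.

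Gene by gene, 66 of the 70 passed the filter on low counts. Hist1h1t, Hist1h2aa, Hist2h2ab and Hist2h3c1 did not, the first a linker histone and the second an H2A known from the testis. Of the tested members, 40 fell in the double knockout against WT and 0 rose (all 66 fitted changes lay below 0) by edgeR's quasi-likelihood test at an adjusted p under 0.05, where 19.6% of all tested genes fell and 18.0% rose. The 40 were 5 of 5 tested H1, 9 of 18 H2A, 13 of 19 H2B, 3 of 11 H3 and 10 of 13 H4 genes. The median log2 fold change was -2.20 (-2.17 with the 6 genes that were at 0 in the double knockout set to their bound), beside 0.01 over all tested genes. Since 34 of the 66 did not reach the cutoff in both double-knockout libraries and were tested through the other groups, these counts, and the calls of such genes named below, are a description. Without any filter, 53 members fell and 1 rose, where 11.5% of 31448 genes fell.

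The number of calls rested on the libraries used. It was 11 without WT replicate 1, 8 without WT replicate 2, 14 without double-knockout replicate 1 and 35 without double-knockout replicate 2. The share of all tested genes that fell shrank too, to 6.04%, 4.89%, 7.33% and 14.6% in that order. Leaving out LEF1cKO replicate 1 or 2 gave 42 and 44 falls, with 19.9% and 21.3% of all tested genes. Levels alone, without a test, put both double-knockout libraries under both WT libraries in 61 of the 70 members and in 59 of the 66 tested, against 30.7% of all tested genes, and above both in 0, which 43.4% of all tested genes were.

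**Figure D2:**
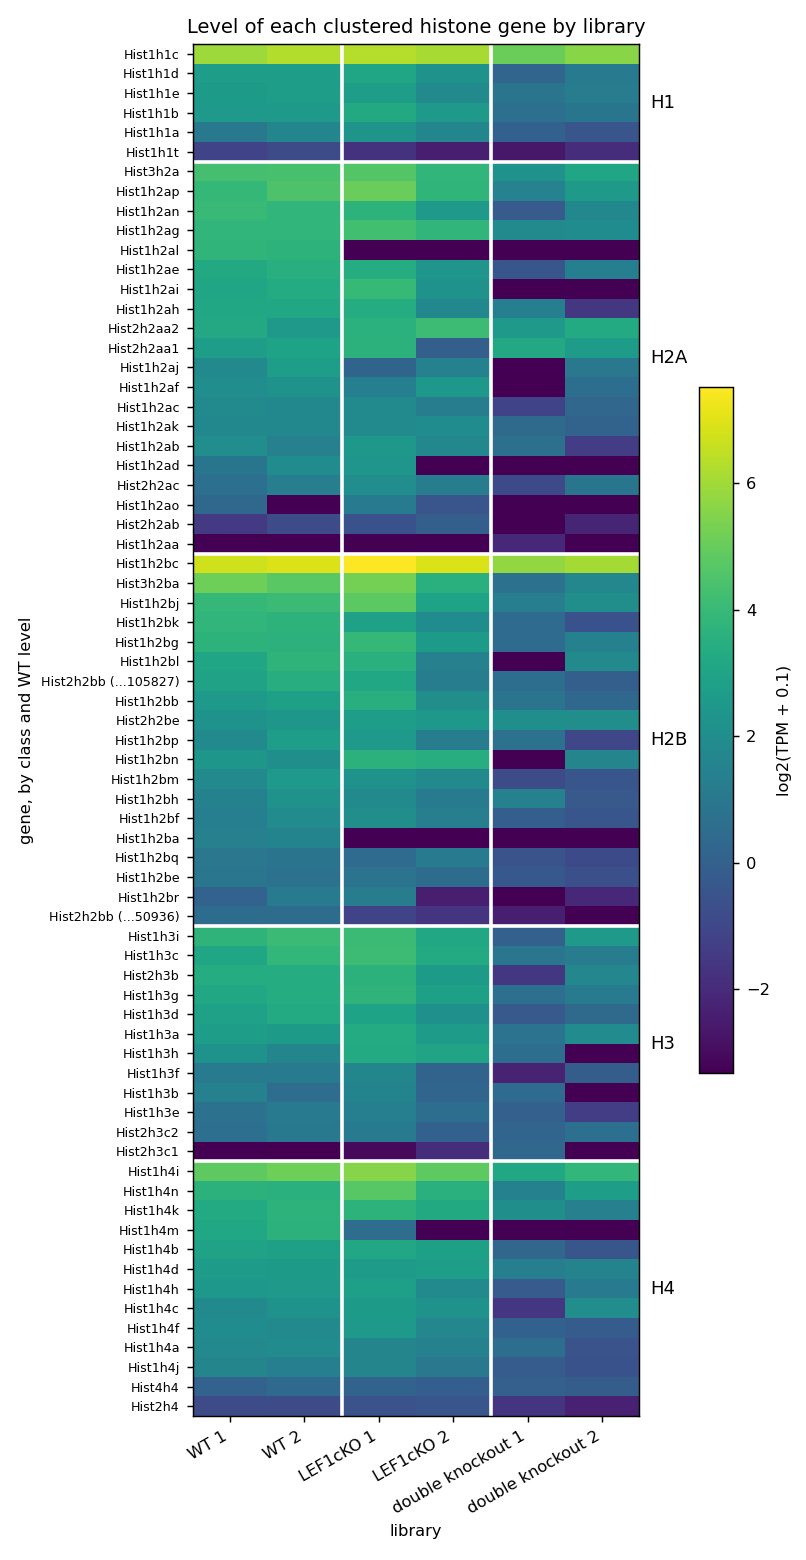
Level of the 70 genes (rows, by class and falling WT level) in the 6 libraries (columns) as log2(TPM + 0.1), where the darkest colour is a gene at 0. The 2 columns of the double knockout are darker in nearly every row, except rows such as Hist2h2be, Hist4h4 and Hist2h2aa2, and Hist1h2al is dark in all 4 knockout libraries.

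Among linker histones, Hist1h1c carried most of the level. It measured 60.1 and 76.5 TPM in WT, 78.7 and 67.5 in LEF1cKO cells, and 34.1 and 48.4 in the double knockout. The double knockout fell below the lowest of the other libraries in both samples, by a log2 fold change of -0.86 ± 0.23 (edgeR adjusted p = 0.029). Hist1h1b, another linker histone of dividing cells, went from 5.51 and 5.70 TPM in WT and 9.39 and 5.69 in LEF1cKO cells to 1.44 and 1.78, a change of -1.93 ± 0.37 against WT (edgeR adjusted p = 0.012). Both calls were lost without WT replicate 1, WT replicate 2 or double-knockout replicate 1, with adjusted p up to 0.17 and 0.072. The other tested linker genes, Hist1h1a, Hist1h1d and Hist1h1e, also fell against WT (-1.81 ± 0.46, -2.20 ± 0.47 and -1.76 ± 0.42). Hist1h1c lies at chr13:23738808-23740367 in M21 (mm10), and its annotated end runs 840 bases past the stem-loop.

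In H2A, the protein that pairs with H2B in the nucleosome, the members with the highest mean level were Hist1h2ap and Hist3h2a. Hist1h2ap had 14.7 and 22.6 TPM in WT, 32.6 and 13.4 in LEF1cKO cells, and 2.66 and 5.68 in the double knockout. Against WT it changed by -2.27 ± 0.60 (edgeR adjusted p = 0.029), and the call was lost on leaving out any WT or double-knockout library (adjusted p up to 0.15). Its coding sequence is identical to that of Hist1h2ao, and the 2 summed gave 15.9 and 22.6 TPM in WT, 34.7 and 14.1 in LEF1cKO cells, and 2.66 and 5.68 in the double knockout. Hist3h2a, from the small Hist3 cluster at chr11:58954685-58956830, had 19.7 and 20.2 TPM in WT, 24.8 and 14.0 in LEF1cKO cells, and 4.55 and 8.08 in the double knockout. This gene fell by 1.79 ± 0.39 on the log2 scale (edgeR adjusted p = 0.016), and was not called without WT replicate 1, WT replicate 2 or double-knockout replicate 1 (up to 0.086). Hist1h2ag measured 13.9 and 13.9 TPM in WT, 19.0 and 13.9 in LEF1cKO cells, and 3.59 and 3.76 in the double knockout. The change of -2.06 ± 0.29 (edgeR adjusted p = 0.0055) was kept in all 13 alternatives tried.

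Hist1h2ai was read in WT (8.55 and 10.2 TPM) and in LEF1cKO (15.1 and 4.55) and had 0 counts in both double-knockout libraries. Against a floor of 3 counts in each library it was at least 27.9-fold lower than in WT (edgeR adjusted p = 0.0075). It passed the filter only through the groups where it was read, as did Hist1h2al, Hist1h2ba and Hist1h4m, so those tests are descriptions. Only 9.88% of its 50-base stretches occur in no other gene, and 84.0% occur in Hist1h2ad, which was also at 0 in both double-knockout libraries and in LEF1cKO replicate 2. Hist1h2al behaved differently: it had 13.5 and 12.9 TPM in WT and 0 counts in all 4 knockout libraries. That is at least 46.7-fold lower in LEF1cKO and at least 37.6-fold lower in the double knockout (edgeR adjusted p = 0.026 and 0.0041). M21 lists it as a processed pseudogene at chr13:51202727-51203065, far from the other Hist1 genes, with 65.5% of its 50-base stretches also in Gm20634, which had 3.69 and 3.94 TPM in WT, 1.99 and 3.75 in LEF1cKO cells and 2.44 and 4.91 in the double knockout.

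The Hist2h2aa1 and Hist2h2aa2 copies in the Hist2 cluster showed no such fall. Their coding sequences are identical, so reads can be split between them only by the few bases that differ. In M21, Gm20634 also holds 100% of the 50-base stretches of Hist2h2aa2 and 89.4% of those of Hist2h2aa1. Reads may thus also be shared with Gm20634, which is not in the sum. Summed, Hist2h2aa1 and Hist2h2aa2 had 15.7 and 13.1 TPM in WT, 24.3 and 18.0 in LEF1cKO cells, and 14.8 and 16.3 in the double knockout. The double knockout lay within the range of both other groups together, with a log2 fold change of -0.03 ± 0.27 against WT (edgeR adjusted p = 0.95, copies summed). Taken alone, Hist2h2aa1 changed by -0.02 ± 1.0 against WT (edgeR adjusted p = 0.99), the highest value of any tested member in that comparison, and Hist2h2aa2 by -0.03 ± 0.41.

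H2B held the gene with the highest level of all, Hist1h2bc, at chr13:23684199-23692908. It measured 106 and 124 TPM in WT, 183 and 122 in LEF1cKO cells, and 54.0 and 65.6 in the double knockout. Both double-knockout libraries were under the other 4, by -1.08 ± 0.25 against WT (edgeR adjusted p = 0.019, and up to 0.12 without WT replicate 1, WT replicate 2 or double-knockout replicate 1). Hist3h2ba, its Hist3 counterpart at chr11:58948920-58949533, changed more, from 34.6 and 27.1 TPM in WT and 38.5 and 11.6 in LEF1cKO cells to 1.53 and 3.12. The log2 fold change was -3.84 ± 0.70 (edgeR adjusted p = 0.0095, and 0.072 without double-knockout replicate 1). Hist1h2bc and Hist1h1c together made up 27.9% of mean histone TPM in WT, 33.2% in LEF1cKO cells and 46.5% in the double knockout.

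Hist1h2bk, another core H2B gene, had 14.0 and 12.7 TPM in WT, 7.22 and 3.75 in LEF1cKO cells, and 1.28 and 0.56 in the double knockout. The 3 groups did not overlap, and the change of -4.01 ± 0.55 against WT (edgeR adjusted p = 0.0052) held in all 13 alternatives, whereas LEF1cKO against WT was not called (-1.35 ± 0.47, edgeR adjusted p = 0.41). Hist1h2bm went from 3.39 and 5.59 TPM in WT to 0.47 and 0.65 (-3.01 ± 0.50). Neither Hist1h2bk nor Hist1h2bm reached the filter's cutoff in both double-knockout libraries, so their calls are descriptions. Hist1h2bq and Hist1h2be, both under 2 TPM in WT, fell by 1.92 ± 0.34 and 1.70 ± 0.32 on the log2 scale. These 3 calls (edgeR adjusted p = 0.0078, 0.0089 and 0.01) were lost without WT replicate 2, and each also without another library: double-knockout replicate 1 for Hist1h2bm, WT replicate 1 for the others, with adjusted p up to 0.058, 0.053 and 0.064. Hist1h2ba, an H2B known from the testis, had 2.56 and 2.87 TPM in WT and 0 counts in all 4 knockout libraries, at least 7.87-fold lower in the double knockout (edgeR adjusted p = 0.01, up to 0.082 without WT replicate 1 or WT replicate 2).

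The Hist2h2bb symbol covered a noncoding gene model (ENSMUSG00000050936, a lincRNA in M21) and the coding gene (ENSMUSG00000105827) that it overlaps. The noncoding model had 1.34 and 1.31 TPM in WT, 0.35 and 0.22 in LEF1cKO cells, and 0.09 and 0 in the double knockout, a change of -5.04 ± 0.84 (edgeR adjusted p = 0.0077, kept in all 13 alternatives). It did not reach the filter's cutoff in either double-knockout library, so this call is a description. The coding gene had 7.46 and 10.7 TPM in WT, 8.64 and 2.24 in LEF1cKO cells, and 1.43 and 0.86 in the double knockout. Because the models overlap, their reads cannot be fully told apart.

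A further pair of genes was chosen after their values were seen, to show where the double knockout lay close to WT. Hist2h2be, an H2B gene of the Hist2 cluster, had 4.69 and 5.20 TPM in WT, 6.38 and 5.46 in LEF1cKO cells, and 4.15 and 3.98 in the double knockout (-0.42 ± 0.19, edgeR adjusted p = 0.13). Hist4h4, the lone H4 gene on chromosome 6, had 0.97 and 1.19 TPM in WT, 0.98 and 0.84 in LEF1cKO cells, and 0.91 and 0.82 in the double knockout (-0.45 ± 0.29, edgeR adjusted p = 0.26). Both were slightly lower without passing the test, and both are annotated with long ends, 2192 and 2515 bases after the stop codon. Long annotated ends were not particular to this pair. Hist3h2a and Hist1h2be, with 1700 and 1906 bases after the stop, were called as falls against WT (-1.79 ± 0.39 and -1.70 ± 0.32).

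Among H3 genes, whose tails carry many of the known chromatin marks, Hist1h3i and Hist1h3c had the highest mean levels. Hist1h3i had 13.2 and 16.8 TPM in WT, 16.7 and 8.73 in LEF1cKO cells, and 0.91 and 5.59 in the double knockout. It was not called (-2.32 ± 0.78, edgeR adjusted p = 0.061). Hist1h3c went from 8.32 and 14.2 TPM in WT and 17.3 and 9.71 in LEF1cKO cells to 1.79 and 2.27 (-2.59 ± 0.47, edgeR adjusted p = 0.0096). Hist1h3d went from 7.30 and 9.86 TPM in WT and 7.62 and 4.29 in LEF1cKO cells to 0.72 and 1.26 (-3.20 ± 0.49, edgeR adjusted p = 0.0066). With Hist1h3g, at 8.59 and 10.3 TPM in WT and 1.46 and 2.04 in the double knockout (-2.56 ± 0.46), these were the only H3 genes that passed. Hist1h3d kept its call in all 13 alternatives, while Hist1h3c and Hist1h3g lost theirs without WT replicate 2 or double-knockout replicate 1 (edgeR adjusted p up to 0.070 and 0.064).

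H4, the partner of H3, was led by Hist1h4i at chr13:22040636-22041362. It had 28.3 and 35.2 TPM in WT, 46.4 and 28.0 in LEF1cKO cells, and 8.94 and 14.3 in the double knockout. The double-knockout libraries lay below all others (-1.59 ± 0.36, edgeR adjusted p = 0.019, and up to 0.10 without WT replicate 1, WT replicate 2 or double-knockout replicate 1). Hist1h4b had 7.43 and 7 TPM in WT, 8.87 and 7.11 in LEF1cKO cells, and 1.08 and 0.65 in the double knockout. It showed one of the most even falls, -3.17 ± 0.39 (edgeR adjusted p = 0.0042), kept in all 13 alternatives. With 8.99 and 5.85 counts in the double knockout, Hist1h4b missed the filter's cutoff in replicate 2, so its call is a description.

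Hist1h4n and Hist1h4m share their whole coding sequence and the stem-loop. Hist1h4n had 12.5 and 11.6 TPM in WT, 26.0 and 11.7 in LEF1cKO cells, and 2.6 and 6.42 in the double knockout. Hist1h4m, named here for that identity, had 8.60 and 12.4 TPM in WT, 1.38 and 0 in LEF1cKO cells, and 0 in the double knockout. Hist1h4n alone was not called (-1.54 ± 0.57, edgeR adjusted p = 0.079), but the pair summed was, with 21.1 and 24.0 TPM in WT, 27.4 and 11.7 in LEF1cKO cells, and 2.6 and 6.42 in the double knockout (-2.40 ± 0.59, edgeR adjusted p = 0.024). For LEF1cKO against WT the summed pair was not called (-0.22 ± 0.55, edgeR adjusted p = 0.96).

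LEF1cKO against WT gave 1 call among the 66 tested members, the fall of Hist1h2al, where 0.377% of all tested genes fell and 0.224% rose. The call did not hold when WT replicate 1, WT replicate 2 or LEF1cKO replicate 2 was left out (edgeR adjusted p up to 0.13). In those 3 fits 0 members fell, and 0.248% to 0.369% of all tested genes. Unadjusted, 5 of the 66 had p under 0.05 by edgeR, all of them lower in LEF1cKO, as had 3.78% of all tested genes. DESeq2 called 2 falls, where 1.28% of its genes fell. Hist1h2bn had the highest tested change, 1.22 ± 0.98, from 5.19 and 4.17 TPM in WT to 12.4 and 10.6 (edgeR adjusted p = 0.79). In 9 of the 70 genes both LEF1cKO libraries lay under both WT libraries and in 10 they lay over them, 8 and 8 of the 66 tested, against 13.4% and 28.3% of all tested genes.

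The double knockout against LEF1cKO uses the same double-knockout libraries as the comparison with WT. By edgeR, 31 of 66 tested members fell and 0 rose, where 14.1% of all tested genes fell and 11.2% rose. Here too, 34 of the 66 did not reach the cutoff in both double-knockout libraries. These counts, and the call of Hist1h4b below, are thus a description. Hist1h2al and Hist1h2ba had 0 counts in all 4 libraries compared, so they could not be called. The falls were 4 H1, 5 H2A, 10 H2B, 4 H3 and 8 H4 genes. Hist1h4b had the smallest p (-3.25 ± 0.39, edgeR adjusted p = 0.011), then Hist1h2ag (-2.24 ± 0.29, 0.011), while Hist1h2bc changed by -1.42 ± 0.25 (0.016) and Hist1h1c by -0.89 ± 0.23 (0.037). Both double-knockout libraries lay under both LEF1cKO libraries in 55 of the 70 genes and 54 of the 66 tested, against 29.4% of all tested genes, and over them in 0, against 35.0%. Summed over all members the log2 ratio was -1.46, with an SD of 0.52 between the LEF1cKO sums. The count was 14 without either WT library, 8 without LEF1cKO replicate 1, 38 without LEF1cKO replicate 2, 21 without double-knockout replicate 2 and 0 without double-knockout replicate 1, a fit in which only 1 of 20389 genes was called at all. The share of all tested genes that fell was 5.26% and 5.13% without WT replicate 1 and 2, then 4.47%, 16% and 7.99% in the order given. None of the 19 named calls in this comparison was kept in all 13 alternatives, against 7 of 20 in the comparison with WT. Hist1h4b, Hist1h2bk, Hist1h2ai, Hist1h2al and the noncoding Hist2h2bb are among those 7 and did not reach the cutoff in both double-knockout libraries.

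**Figure D3:**
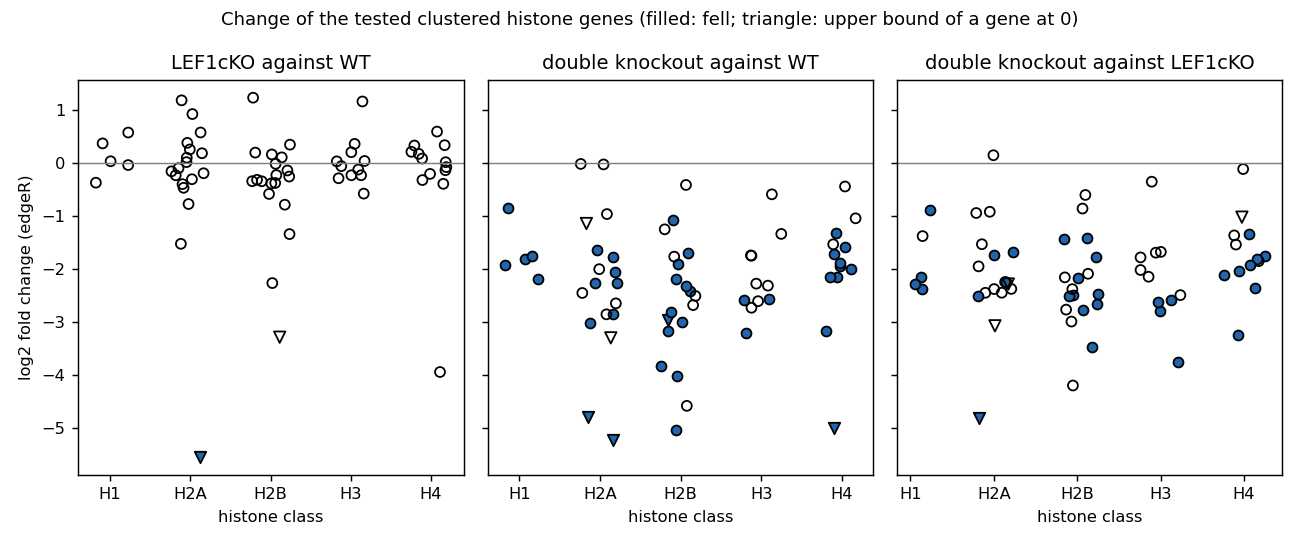
Fitted log2 fold change (y axis) of the tested members by class (x axis) in the 3 comparisons, filled where the gene fell by edgeR and with triangles for the upper bound of a gene with 0 counts in the first group. Points scatter around 0 for LEF1cKO against WT and lie at or under 0.14 for the double knockout against WT or LEF1cKO, where Hist1h2al and Hist1h2ba, at 0 in both knockouts, are left out of the last panel.

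By position, the 54 placed Hist1 genes lie on chromosome 13, 11 Hist2 genes on chromosome 3 between 96219865 and 96279001, and the Hist3 and Hist4 genes on chromosomes 11 and 6. The Hist1 genes summed to 518 and 604 TPM in WT, 730 and 444 in LEF1cKO cells, and 154 and 211 in the double knockout. The Hist2 genes summed to 43.3 and 46.0 TPM in WT, 59.4 and 36.7 in LEF1cKO cells, and 23.5 and 27.7 in the double knockout. As log2 ratios to WT on TMM-scaled CPM, that was -1.44 for Hist1, -0.69 for Hist2 and -2.16 for the 2 Hist3 genes. Of the tested Hist2 members 3 of 9 fell against WT, and 35 of 54 in Hist1, where 19.6% of all tested genes fell. The difference between clusters was not tested.

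The members resemble each other most in their coding sequence. They are short, 62 of the 68 with a single exon, and 62 share at least 1 stretch of 50 bases with another member. Coding identity to the closest member was at least 98% in 38 genes, and 8 had an identical copy. The median member had 49.0% of its 50-base stretches in no other gene, and 34 had at least 50%. In those 34 genes, 31 were tested and 24 fell in the double knockout against WT, where 19.6% of all tested genes fell. These shares were taken on M21 transcripts, and the deposited length differed for some members, as for Hist1h2ac (476 bases deposited, 2482 in M21). How easily reads could be placed on the deposited models was not measured. In the 9 genes with under 10% unique stretches, 8 were tested and 3 fell. Summing the 4 identical pairs before the fit, an alternative chosen after seeing the data, gave 40 falls among 63 tested genes and sums.

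Annotated ends differ as well. The M21 end lay within 100 bases of the stem-loop in 22 members, ran on for at least 100 bases in 22, and showed no stem-loop in 24. The deposited gene length equalled that of the longest M21 transcript in only 46 of the 68 placed members. Elsewhere the counted model can lack the M21 end, as for Hist1h1d with 744 deposited bases and 7425 in M21. The sets thus describe M21 ends and not the models on which reads were counted. Falls against WT numbered 12 of 22, 15 of 20 and 12 of 22 tested members in these sets, where 19.6% of all tested genes fell. Median levels in WT were 6.75, 3.73 and 4.95 TPM, and in the double knockout 1.25, 1.13 and 1.05 TPM. Median levels were lower in the double knockout in each of the 3 sets, and whether the recovered RNA had a poly(A) tail was not tested.

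**Figure D4:**
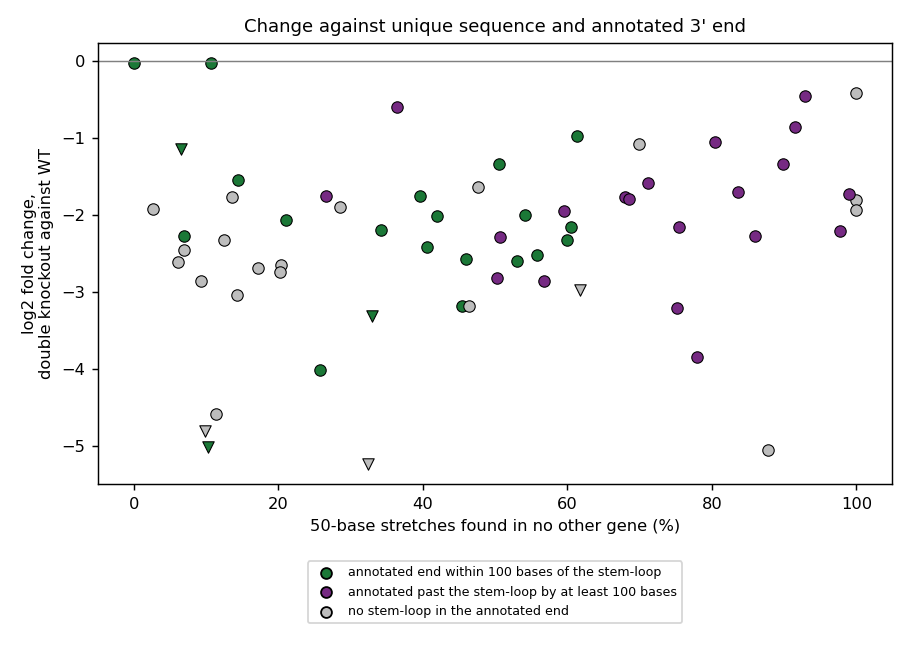
Log2 fold change in the double knockout against WT (y axis) of the tested and placed members, with triangles for bounds. The x axis is the percentage of their 50-base stretches found in no other M21 gene, and colours give the M21 annotated end. Low values occur along the whole x axis, and the genes nearest 0 include Hist2h2aa1 and Hist2h2aa2 with few unique stretches and Hist2h2be with 100% unique.

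In 12 places an H2A and an H2B gene start back to back, with 176 to 306 bases between their starts, so that they share a promoter region. Both partners fell in 3 pairs, 1 partner in 8, and neither in 1, the pair Hist2h2ac and Hist2h2be. Among the 8 is the pair of Hist1h2ba with Hist1h2aa, which was not tested. Beside these counts, 40 of 66 tested members and 19.6% of all tested genes fell. The uncalled tested partners in the 8 pairs had fitted log2 fold changes of -1.77 (Hist1h2bn) or lower. A partner without a call was thus not shown to be unchanged. Hist1h2ag and Hist1h2bj, 270 bases apart, had mean levels of 13.9 and 15.7 TPM in WT, 16.4 and 17.5 in LEF1cKO cells, and 3.68 and 3.23 in the double knockout. Both fell, by 2.06 and 2.42 on the log2 scale.

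Promoters are shown because many members moved together: for each class, the member with the highest level among those in the RefSeq table (GRCm38.p6; 61 of 70 matched, with 60 distinct promoters, since both Hist2h2bb identifiers matched the same one), as the 150 bases before the start in gene direction. Capitals mark matches on either strand to the CCAAT box, the TATA box TATAAA, the octamer ATTTGCAT, the box of H1 promoters AAACACA, and a core of LEF/TCF sites, which is CTTTGAA and also CTTTGAT.
Hist1h1c, chr13:23738657-23738806, plus strand: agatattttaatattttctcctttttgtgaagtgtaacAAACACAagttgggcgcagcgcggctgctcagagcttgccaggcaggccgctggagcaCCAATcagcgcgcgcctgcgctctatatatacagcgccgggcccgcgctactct
Hist1h2ap, chr13:21833476-21833625, minus strand: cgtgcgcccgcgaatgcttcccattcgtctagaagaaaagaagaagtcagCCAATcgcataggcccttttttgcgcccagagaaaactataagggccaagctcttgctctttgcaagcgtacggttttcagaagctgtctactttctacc
Hist3h2ba, chr11:58948761-58948910, plus strand: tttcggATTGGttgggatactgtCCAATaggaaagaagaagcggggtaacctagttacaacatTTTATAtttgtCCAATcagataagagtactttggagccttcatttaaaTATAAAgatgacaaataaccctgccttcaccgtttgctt
Hist1h3i, chr13:21783398-21783547, minus strand: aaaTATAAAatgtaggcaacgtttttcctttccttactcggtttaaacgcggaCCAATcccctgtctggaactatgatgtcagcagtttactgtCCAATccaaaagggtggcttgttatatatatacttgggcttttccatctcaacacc
Hist1h4i, chr13:22041363-22041512, minus strand: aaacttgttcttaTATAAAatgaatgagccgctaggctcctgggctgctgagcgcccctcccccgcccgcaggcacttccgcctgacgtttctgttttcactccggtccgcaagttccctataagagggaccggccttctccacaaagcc
Over the whole window of 250 bases before to 50 after the start, CCAAT was in 51 of the 60 promoters, namely in every matched one of H1, H2A, H2B and H3 genes and in 3 of 12 of H4 genes, against 37.9% of 27025 RefSeq promoters. TATAAA was in 58.3% against 14.2%. The octamer was in 7 of 18 H2A and 5 of 14 H2B promoters and in 0 of the others, against 1.75% of all. AAACACA was in 8 of the 60, among them 5 of 6 H1 promoters, against 7.14% of all. The LEF/TCF core was in 4 of 60, 6.67%, against 8.77% of all promoters, namely in Hist1h3b, Hist1h2bf, Hist1h2ad and Hist3h2a. Windows of back-to-back H2A and H2B genes can overlap, as for Hist1h2ba and Hist1h2aa, so a match can count for both partners. Hist1h2bf and Hist1h2ad are such a pair, with 185 bases between their starts. These are matches of letters in this window only, and no binding was measured.

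Of 16 genes that make or process histone messages, 10 fell in the double knockout against WT and 0 rose, with a median log2 fold change of -0.50. In this comparison 19.6% of all tested genes fell and 18.0% rose. Slbp, the stem-loop binding protein, went from 152 and 159 TPM in WT and 165 and 154 in LEF1cKO cells to 81.4 and 100.1 (-0.93 ± 0.14, edgeR adjusted p = 0.0066). Eri1, an exonuclease that trims histone message ends, changed by -0.94 ± 0.13, Casp8ap2, a factor of the histone locus body, by -0.66 ± 0.09, and the cleavage factor Cpsf2 by -0.64 ± 0.09. Of the 6 that did not pass, a pair was chosen after their values were seen. Hinfp, an activator of H4 genes, had 11.7 and 11.2 TPM in WT and 12.2 and 11.4 in the double knockout (-0.10 ± 0.15, edgeR adjusted p = 0.65), and Lsm10, a subunit of the U7 snRNP, had 11.7 and 11.3 and then 12.9 and 18.1 (0.19 ± 0.30, edgeR adjusted p = 0.66).

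Of 11 histone genes outside the clusters, which are not tied to S phase as a group and mostly have poly(A) tails, 10 fell and 0 rose, H3f3a being the exception (-0.45 ± 0.15, edgeR adjusted p = 0.061). Cenpa, the H3 variant of centromeres, changed by -1.24 ± 0.09, H2afz by -1.37 ± 0.13, H2afx, known from DNA damage signalling, by -1.64 ± 0.22, and H2afv by -0.98 ± 0.13. Of 22 histone chaperones and partners, 14 fell and 1 rose, where 19.6% of all tested genes fell and 18.0% rose. The smallest p belonged to Hat1, which acetylates new H4 (-1.21 ± 0.14), Asf1b (-0.95 ± 0.11), the CAF-1 subunit Chaf1b (-0.99 ± 0.12) and Hira (-0.72 ± 0.09). Ubn2, a partner of Hira, was the one that rose (0.62 ± 0.13, edgeR adjusted p = 0.014).

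All 20 genes of an S-phase list fell, where 19.6% of all tested genes did, with a median log2 fold change of -1.18 over the list. Among them, Tk1, thymidine kinase, went from 239 and 243 TPM in WT and 230 and 223 in LEF1cKO cells to 92.5 and 96.5 (-1.46 ± 0.10, edgeR adjusted p = 0.0017). Tyms, thymidylate synthase, changed by -1.22 ± 0.12, and Pola1, a subunit of DNA polymerase alpha, by -1.30 ± 0.13. The list's summed TPM was 2574 and 2726 in WT, 2773 and 2504 in LEF1cKO cells, and 1180 and 1426 in the double knockout. Set against it, summed histone TPM was 0.240 and 0.256 of the S-phase sum in WT, 0.308 and 0.203 in LEF1cKO cells, and 0.156 and 0.176 in the double knockout. The double-knockout ratios were the lowest of the 6, and the LEF1cKO ratios lay on both sides of WT. In LEF1cKO against WT, 0 genes of these 4 lists passed in either direction, where only 0.601% of all tested genes did.

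**Figure D5:**
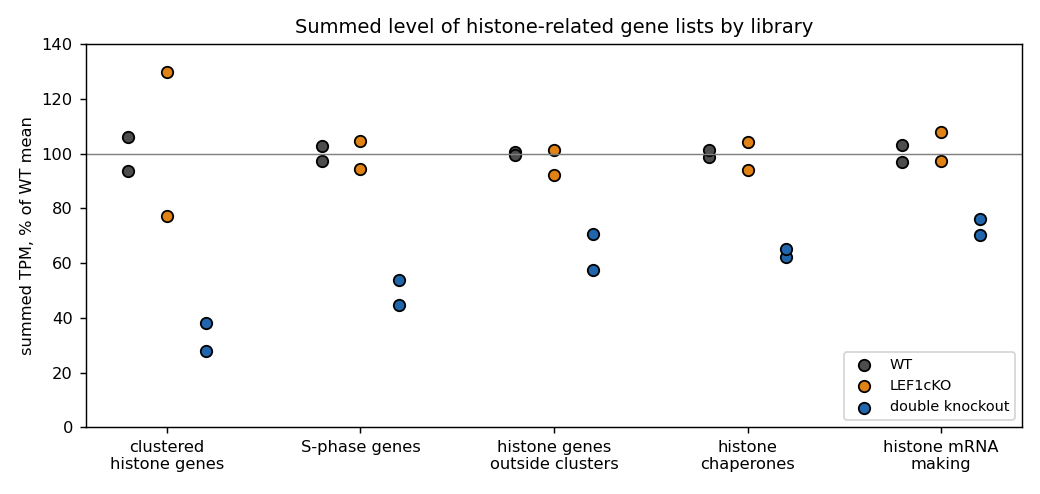
Summed TPM of 5 gene lists as a percentage of the WT mean (y axis, from 0) in every library, with 1 point per library and colours for the groups. In the double knockout the clustered histone genes stood at 28.0% and 38.1%, the S-phase genes at 44.5% and 53.8%, and the other lists between 57.6% and 76.2%.

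Markers of other cells moved with the same comparison, in which 18.0% of all tested genes rose and 19.6% fell. Summed TPM of 6 fibroblast markers was 142 to 303 in WT, 385 to 868 in LEF1cKO cells and 1557 to 1865 in the double knockout, and 6 of 6 rose against WT. For 6 suprabasal epidermis markers the sums were 1133 to 1366, 2612 to 2691 and 10436 to 10999, with 5 of 6 risen, and for 6 immune markers 10.2 to 37.0, 71.9 to 87.9 and 205 to 232, with 5 of 6 risen. Sums of 5 endothelial markers were 5.82 to 6.47 and 7.27 to 8.36 in WT and LEF1cKO, and 14.1 and 68.0 in double-knockout replicates 2 and 1, with 5 of 5 risen. Of 5 melanocyte markers 0 passed the test in either direction (summed TPM 398 to 585 in WT and 266 to 492 in the double knockout). None of the listed markers was at 0 in a whole group. Of 10 hair germ and follicle stem cell markers, 3 rose and 5 fell (summed TPM 12354 to 12827 in WT and 16795 to 21415 in the double knockout). Keratins made up most of that sum, such as Krt14 at 3410 and 3578 TPM in WT and 6699 and 8368 in the double knockout. Cdh3, the gene of P-cadherin, had 134 and 130 TPM in WT and 65.9 and 85.9 in the double knockout. Lhx2 had 337 and 381 and then 114 and 198, and Lgr5 82.1 and 73.7 and then 32.8 and 50. Cd34 and Ly6a, whose proteins were part of the sort, both rose. The part of these markers in the lower histone levels was not tested.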

How the data were processed

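The submitters' processing notes name Bowtie2 2.2.9, RSEM 1.2.30 and mm10. They name no annotation release, which was not given in the sources used. Expected counts are the authors' RSEM estimates per gene, deposited without normalization, in which reads shared by near-identical genes are split by a model. The deposited TPM and FPKM are RSEM's own columns, per the file headers; FPKM was not used. Each file listed 46517 genes, after 92 spike-in rows with 0 counts were dropped.

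After rounding, the counts were tested in edgeR 4.0.16 (R 4.3.3; TMM factors, filterByExpr at its minimum count of 10, quasi-likelihood F test, Benjamini-Hochberg adjustment over 19640 genes at 0.05). All 6 libraries were fitted together, with 3 residual degrees of freedom and a biological coefficient of variation of 0.232. Class sums add all members' counts, scaled by TMM library size, and have no test. Counts of 0 were set to a floor of 3 counts, 0.0475 to 0.0741 CPM, which covers counting error only. Named genes were the 15 smallest p among called members per comparison, the 2 highest mean TPM per class, and the highest and lowest change; other lists name up to 4 genes by p, and not every named gene is reported here. Alternatives were RLE factors, no filter, DESeq2 1.42.0, limma 3.58.1 on log2(TPM + 1), effective length as an offset, only the 2 groups compared, a replicate block and leaving out each library; for sums, RLE factors, library size only, summed TPM and leaving out each library. The members and gene lists were chosen with earlier results of these data known. Stem-loops, shared stretches and positions came from GENCODE M21, promoters from RefSeq. No protein sequence was used here.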

Additional observations from a re-analysis of the deposited data

How the results depend on the processing

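The sums over all members and over each class kept their direction in the comparisons with the double knockout, within 1 SD, under RLE factors, library size only and summed TPM. They also kept it with each library left out, as they must where groups do not overlap. With 2 libraries per group at gaps of this size, leaving 1 out cannot move a group mean by the SD. The left-out libraries thus do not check how stable the sums were. The counts of calls varied between the alternatives. For the double knockout against WT, falls numbered 53 with no filter (11.5% of all genes) and 48 by DESeq2 (19.7%), each with 1 rise (Hist2h3c1, named after its values were seen, read only in double-knockout replicate 1 in that group), and 8 to 44 with 1 library left out, with 0 or 1 rise. Against LEF1cKO they numbered 50 with no filter (8.45% of all genes), 47 by DESeq2 (17.6%), 15 with only the 2 groups compared (6.85%) and 0 to 38 with 1 library left out, with 0 or 1 rise (Hist2h2aa1). For LEF1cKO against WT, falls numbered 2 with no filter (0.655%), 2 by DESeq2 (1.28%), 3 by limma (0.636%) and 0 to 1 with 1 library left out. The cause was not tested.

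Equal replicate numbers did not pair the libraries: deviations of same-numbered libraries correlated at -0.04, 0.06 and -0.03, over 2 pairs each. With the replicate block, falls numbered 40, 24 and 0 (of all tested genes, 16.8%, 9.99% and 0.275%) for the double knockout against WT, against LEF1cKO, and LEF1cKO against WT, which ended the call of Hist1h2al in the last.

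Some uncalled values turned sign when 1 library was left out. For LEF1cKO against WT the log2 fold change then ran from -0.14 to 0.21 for Hist1h1c, -0.10 to 0.71 for Hist1h1b, -0.59 to 0.78 for Hist1h2ap, -0.64 to 0.28 for Hist3h2a, -0.0430 to 0.64 for Hist1h2bc, -1.53 to 0.29 for Hist3h2ba, -0.90 to 0.13 for Hist1h3i, -0.34 to 0.63 for Hist1h3c, -0.30 to 0.52 for Hist1h4i and -0.17 to 1.08 for Hist1h4n. Hist2h2aa1 in the double knockout was 0.092 against WT by limma and ran from -0.26 to 0.18 against WT and from -0.79 to 3.14 against LEF1cKO. Members under about 0.07 CPM lie at the floor of detection at this depth.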
